A study of Mus musculus with 4 samples.

Results

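The genes described here encode the proteins of the cytosolic ribosome in mouse liver. They were taken by name from the genes measured on the array: symbols beginning Rpl or Rps with a digit, Rplp0 to Rplp2 and Rpsa, without the S6 kinases, which share the prefix Rps. This gave 72 genes of 16504, measured by 77 probes, with 45 assigned by name to the large and 27 to the small subunit. The 27 include Rps19bp1, which the name rule took although it encodes a binding partner of Rps19. The study compared liver RNA of polygenic obese mice on day 14 of a feeding trial. The CLA group was fed conjugated linoleic acid, a family of isomers of linoleic acid, and the LA group, the control, was fed linoleic acid itself. Pools of 5 or 4 samples were labelled, so the spread between single mice cannot be seen. There were 4 two-channel arrays, each with a CLA and an LA pool, with CLA in the dye Cy5 on arrays 1 and 2 and in the dye Cy3 on arrays 3 and 4. The labels do not say whether arrays shared pools, so p-values measure only the spread between these 4 arrays, which may be technical.

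A ribosome has a small subunit, which reads the messenger RNA, and a large subunit, which joins the amino acids. Ribosomal proteins are needed in matched amounts, and their messenger RNAs begin with a run of pyrimidines through which growth signals acting on the kinase Mtor control their translation. The liver makes most plasma proteins and is rich in ribosomes.

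The deposited log ratios do not state which dye is on top, and this limits what a sign means. Values of single arrays are listed in array order. Each gene was described by 2 quantities on the log2 scale. The sign-changing part is the mean over the 4 arrays after the sign of arrays 3 and 4 is turned, and it is negative where arrays 1 and 2 lie below arrays 3 and 4. The sign-keeping part is the plain mean of the 4 values. If the deposited ratio is Cy5 over Cy3, the sign-changing part is CLA over LA and the sign-keeping part is a dye effect. If every array was already turned to CLA over LA, the sign-keeping part is CLA over LA and the sign-changing part follows the dye. Which reading holds is not settled here, so genes are called negative or positive in a part and not higher or lower with CLA.

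Promoters of members that stood out in the sign-changing part are shown because the results turn on these genes. Promoters from RefSeq (build GRCm38.p6, 250 bases before to 50 bases after the annotated start) were matched by symbol to 59 of the 72 members. The motif CTTTC with its reverse complement GAAAG, a run found in pyrimidine-rich starts, and CGGAAG with its reverse complement CTTCCG, a core bound by ETS family factors, were searched on both strands, and matches may overlap. CTTTC was found in 81.4% of the 59 members, against 60.6% of 27025 genes with a promoter and 64.7% of the mitochondrial ribosomal protein genes. CGGAAG was found in 71.2% of the members, against 18.8% of all these genes and 55.9% of 68 mitochondrial ribosomal protein genes. On the gene's own strand within 25 bases of the start, CTTTC was found in 27.1% of the members, against 7.87% of all these genes and 7.35% of the mitochondrial ribosomal protein genes. CGGAAG stood in 6 of 10 negative members past the threshold, in 3 of 3 positive ones and in 33 of 46 others. For CTTTC these counts were 8 of 10, 2 of 3 and 38 of 46. For CTTTC near the start on the gene's own strand they were 3 of 10, 0 of 3 and 13 of 46. Whether a motif went with the calls was not tested. The windows below run 5′ to 3′ from 100 bases before to 20 bases after the start, with matches in capitals. They are the 5 most negative members past the threshold and the 3 positive ones, among those with 1 listed promoter. They lie in Rps9 at chr7:3703941-3704060 on the plus strand, Rplp0 at chr5:115559367-115559486 on the plus strand, Rpl13a at chr7:45128726-45128845 on the minus strand, Rpl7a at chr2:26910707-26910826 on the plus strand, Rpsa at chr9:120127666-120127785 on the plus strand, Rpl39 at chrX:37085203-37085322 on the minus strand, Rpl37 at chr15:5116513-5116632 on the plus strand and Rps25 at chr9:44407614-44407733 on the plus strand.
Rps9: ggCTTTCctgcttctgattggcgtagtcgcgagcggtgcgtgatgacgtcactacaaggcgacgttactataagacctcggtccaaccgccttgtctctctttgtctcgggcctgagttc
Rplp0: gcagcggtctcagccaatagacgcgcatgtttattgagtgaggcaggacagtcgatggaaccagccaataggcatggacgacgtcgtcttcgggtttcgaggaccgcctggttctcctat
Rpl13a: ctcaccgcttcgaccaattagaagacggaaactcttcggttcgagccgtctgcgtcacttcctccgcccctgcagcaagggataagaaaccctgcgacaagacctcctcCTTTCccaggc
Rpl7a: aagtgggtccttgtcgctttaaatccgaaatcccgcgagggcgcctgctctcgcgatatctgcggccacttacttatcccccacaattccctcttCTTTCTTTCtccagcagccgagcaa
Rpsa: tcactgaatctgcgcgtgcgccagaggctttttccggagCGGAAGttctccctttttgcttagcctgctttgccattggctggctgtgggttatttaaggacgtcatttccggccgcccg
Rpl39: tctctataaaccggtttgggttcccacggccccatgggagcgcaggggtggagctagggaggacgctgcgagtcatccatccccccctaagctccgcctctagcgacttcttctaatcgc
Rpl37: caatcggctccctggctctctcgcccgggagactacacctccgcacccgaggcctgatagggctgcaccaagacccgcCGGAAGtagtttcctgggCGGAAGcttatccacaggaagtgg
Rps25: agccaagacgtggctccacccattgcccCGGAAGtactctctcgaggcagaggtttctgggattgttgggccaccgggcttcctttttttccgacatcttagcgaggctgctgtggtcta
In these windows CTTTC occurs in Rps9, Rpl13a and Rpl7a, CGGAAG occurs in Rpsa, Rpl37 and Rps25, and neither occurs in Rplp0 and Rpl39. A match is a run of letters and is not shown to be a bound site.

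In the sign-changing part 14 of 72 members were negative and 3 were positive at an adjusted p under 0.05 (limma, Benjamini-Hochberg over all genes). The 14 were 19.4% of the members, against 9.72% of all genes, and the 3 were 4.17%, against 7.37% of all genes. In either direction it was 23.6% of the members, against 17.1% of all genes. At an unadjusted p under 0.05 the share, 38.9%, was close to the 38.5% of all genes. The median of the members was -0.043, against 0.019 over all genes, and 45 of 72 were negative. The other 55 members did not pass and ranged between -1.38 and 0.53, and 9 of them, 6 negative and 3 positive, had an adjusted p between 0.05 and 0.1 (limma). The count rests on all 4 arrays. Leaving out array 1 left 3 members past the threshold (4.17%), against 544 of 16504 genes, and leaving out array 2 left 2 (2.78%), against 735 of 16504 genes, or 4.45%. Leaving out array 3 or 4 left 0 members and 0 of all genes (limma). There, 23 members (31.9%) and 19 members (26.4%) had an unadjusted p under 0.05, against 28.6% and 24.3% of all genes. With arrays 1 and 3 and arrays 2 and 4 averaged it was 0, against 0.757% of all genes, and 26 members (36.1%) had an unadjusted p under 0.05 (limma), against 33.9% of all genes. In these settings calls were lost over the whole table as well as among the members. Whether the members lost more of them than other genes was not tested. The values of the 17 members stayed between 0.79 and 1.21 times their size when an array was left out. These members were picked on the same 4 arrays for values large against their spread, so this range is no separate support for the calls.

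**Figure D1:**
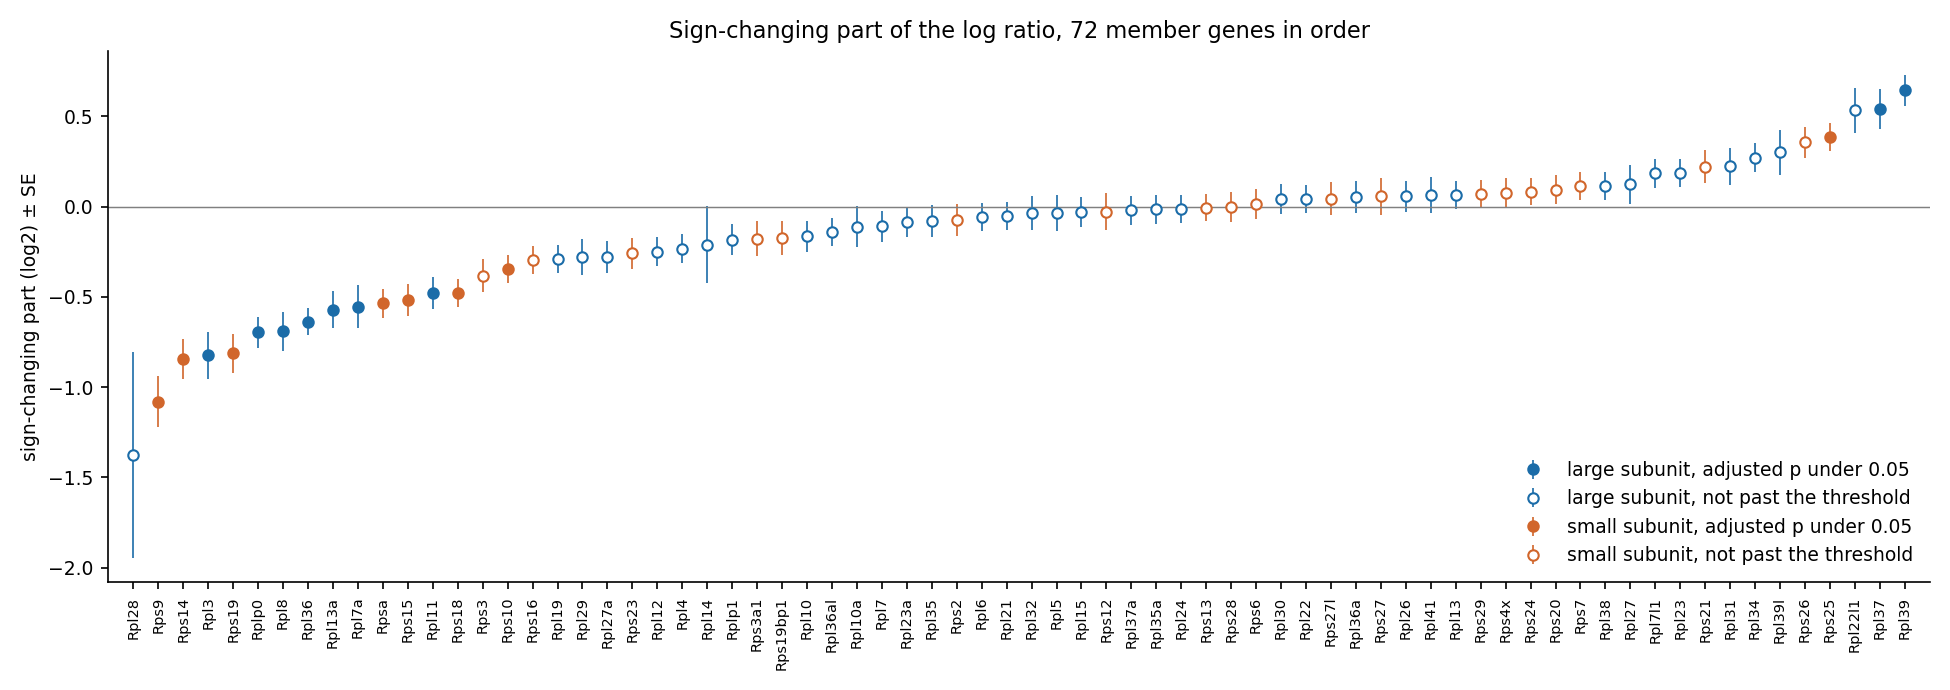
Sign-changing part (log2, vertical axis) of the 72 member genes in order, large subunit in blue and small subunit in orange, with bars for the standard error from limma over 4 arrays. Filled points have an adjusted p under 0.05; 14 are negative and 3 positive, and both subunits lie along the whole order.

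The most negative members past the threshold were Rps9, Rps14, Rpl3 and Rps19. Rps9, a protein of the body of the small subunit, was at -0.80 and -1.05 with CLA in Cy5 and 0.89 and 1.57 with CLA in Cy3. The arrays of the 2 dye orientations did not overlap, and array 4 was farthest from 0. Its sign-changing part was -1.08 ± 0.14 (SE, n = 4 arrays, limma adjusted p = 0.025), a 2.12-fold difference.

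Rps14, whose loss of a copy contributes to the anaemia of human 5q deletion syndrome, was at -0.92 and -0.50 with CLA in Cy5 and 1.11 and 0.84 with CLA in Cy3. Its sign-changing part was -0.84 ± 0.11 (limma adjusted p = 0.025). Rps19, often mutated in human Diamond-Blackfan anaemia, was at -0.60 and -0.57 with CLA in Cy5 and 0.81 and 1.28 with CLA in Cy3. The order was the same in both genes, with arrays 1 and 2 below 0 and arrays 3 and 4 above 0. The sign-changing part of Rps19 was -0.81 ± 0.11 (limma adjusted p = 0.025). Rpl3, a large subunit protein that reaches toward the peptidyl transferase centre, was at -0.56 and -0.85 with CLA in Cy5 and 0.64 and 1.24 with CLA in Cy3, again without overlap, and its sign-changing part was -0.82 ± 0.13 (limma adjusted p = 0.031).

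Rpl36, of the large subunit, had the smallest adjusted p of the members. It was at -0.50 and -0.47 with CLA in Cy5 and 0.76 and 0.81 with CLA in Cy3, with a sign-changing part of -0.64 ± 0.076 (limma adjusted p = 0.023). The values of each orientation lay close together and those of the 2 orientations far apart. Rpl8, near the peptidyl transferase centre, was at -0.41 and -0.85 with CLA in Cy5 and 0.65 and 0.85 with CLA in Cy3, with -0.69 ± 0.11 (limma adjusted p = 0.031). Rpl13a, known in human myeloid cells for a second role in silencing inflammatory messages, was at -0.52 and -0.61 with CLA in Cy5 and 0.38 and 0.77 with CLA in Cy3, with -0.57 ± 0.10 (limma adjusted p = 0.035). In both genes the orientations were apart.

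Rpl7a, at the surface of the large subunit, was at -0.33 and -0.63 with CLA in Cy5 and 0.39 and 0.86 with CLA in Cy3, with -0.55 ± 0.12 (limma adjusted p = 0.045), and its call was lost with 1 coefficient (limma adjusted p = 0.051). Rpl11, which binds the p53 regulator Mdm2 when free of ribosomes, was at -0.40 and -0.64 with CLA in Cy5 and 0.36 and 0.52 with CLA in Cy3, with -0.48 ± 0.089 (limma adjusted p = 0.036). Arrays 1 and 2 were again below and arrays 3 and 4 above 0 in both. Rpl5, which acts with Rpl11 on Mdm2, was at -0.0099 and -0.21 with CLA in Cy5 and -0.22 and 0.13 with CLA in Cy3. These values overlapped, and its sign-changing part of -0.033 ± 0.10 did not pass (limma adjusted p = 0.83).

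Of the small subunit, Rpsa, also known as the laminin receptor precursor, was at -0.37 and -0.38 with CLA in Cy5 and 0.63 and 0.77 with CLA in Cy3, with -0.54 ± 0.079 (limma adjusted p = 0.028). Rps15 and Rps18, both in the head of the small subunit, had sign-changing parts of -0.52 ± 0.090 (limma adjusted p = 0.034) and -0.48 ± 0.077 (limma adjusted p = 0.031). In all 3 genes arrays 1 and 2 lay below 0 and arrays 3 and 4 above 0. Rps10, near the entry of the messenger RNA, was at -0.47 and -0.37 with CLA in Cy5 and 0.23 and 0.32 with CLA in Cy3. It was the member nearest the threshold, with -0.35 ± 0.079 (limma adjusted p = 0.049), and the call was lost with scaled arrays, robust moderation, 1 coefficient and both ways of averaging arrays (limma adjusted p from 0.051 to 0.10). Rps3, also at the messenger entry, was just outside it with -0.38 ± 0.092 (limma adjusted p = 0.054). Rps6, the substrate of the S6 kinases, was at -0.060 and -0.041 with CLA in Cy5 and -0.18 and 0.031 with CLA in Cy3, with 0.013 ± 0.083 (limma adjusted p = 0.92).

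The 3 positive members past the threshold were Rpl39, Rpl37 and Rps25. Rpl39, a very small protein in the wall of the exit tunnel of the large subunit, was at 0.55 and 0.31 with CLA in Cy5 and -0.83 and -0.89 with CLA in Cy3. This is the opposite order to Rps9, without overlap, and the sign-changing part was 0.64 ± 0.086 (limma adjusted p = 0.025). Rps25, known from yeast and human cells for a role in initiation at internal entry sites, was at 0.26 and 0.17 with CLA in Cy5 and -0.58 and -0.53 with CLA in Cy3, in the same order as Rpl39. Its sign-changing part was 0.39 ± 0.077 (limma adjusted p = 0.041), and the call was lost with scaled arrays (limma adjusted p = 0.055), with 1 coefficient (limma adjusted p = 0.077) and with both ways of averaging arrays.

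Rpl37, a zinc-binding protein of the large subunit, differed in form from these. It was at 0.88 and 1.33 with CLA in Cy5 and 0.14 and -0.091 with CLA in Cy3. Arrays 1 and 2 were far above 0 and arrays 3 and 4 close to 0, so the 2 parts were of like size. The sign-changing part was 0.54 ± 0.11 (limma adjusted p = 0.043) and the sign-keeping part 0.56 ± 0.11 (limma adjusted p = 0.35). With 1 coefficient the sign-changing part had a limma adjusted p of 0.21.

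**Figure D2:**
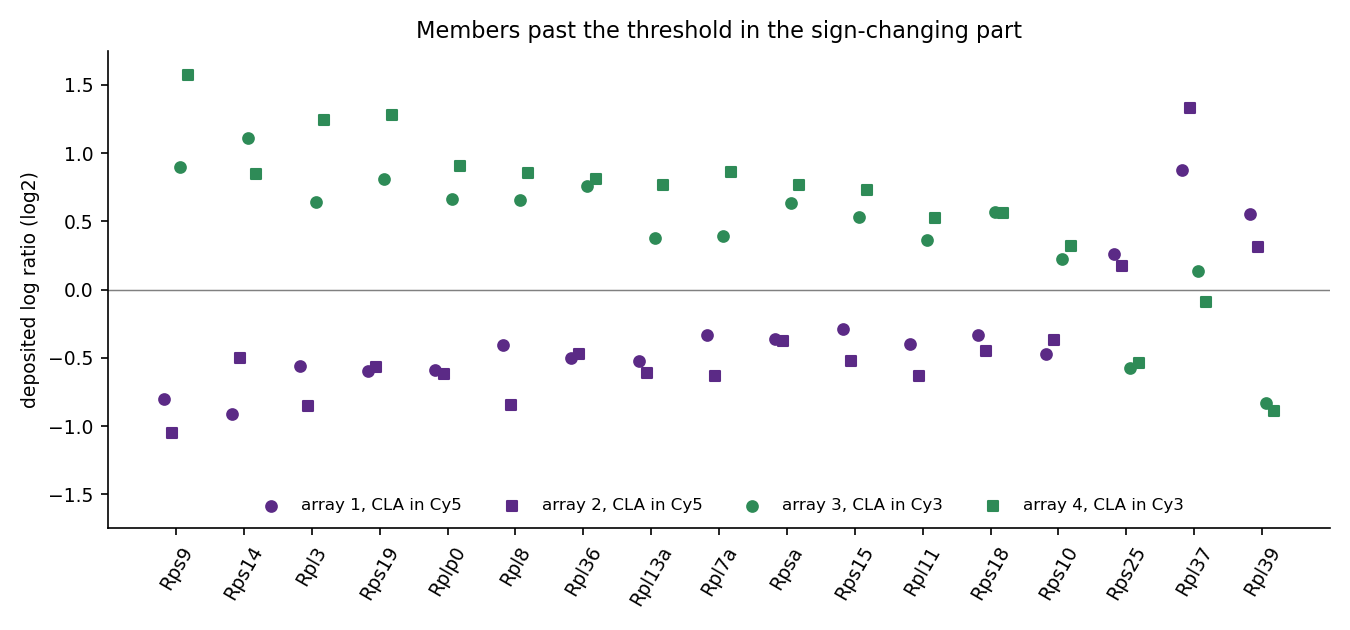
Deposited log ratios (log2, vertical axis) on the 4 arrays for the 17 members past the threshold in the sign-changing part, 1 column of points per gene, with purple for arrays 1 and 2 and green for arrays 3 and 4. In 14 genes arrays 1 and 2 lie below 0 and arrays 3 and 4 above 0, Rps25 and Rpl39 run the other way, and Rpl37 lies near 0 on arrays 3 and 4.

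In the sign-keeping part 0 of 72 members and 0.0% of all genes passed (limma). At an unadjusted p under 0.05 there were 2 members (2.78%), against 13.5% of all genes. The median of the members was -0.034, against 0.00059 over all genes, and 46 of 72 were negative. The 5 members with the smallest p were Rpl37, Rpl23, Rpl39, Rpl22l1 and Rps26, with limma adjusted p from 0.35 to 0.38.

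Rpl23, which in human cells can also bind Mdm2, was at -0.026 and -0.061 with CLA in Cy5 and -0.45 and -0.38 with CLA in Cy3, with a sign-keeping part of -0.23 ± 0.076. All 4 of its values were below 0, and arrays 3 and 4 were the lower ones. The sign-keeping part was -0.21 ± 0.086 for Rpl39, -0.31 ± 0.13 for Rpl22l1 and -0.21 ± 0.086 for Rps26, a protein at the messenger exit of the small subunit. Rps26 was at 0.15 and 0.14 with CLA in Cy5 and -0.44 and -0.70 with CLA in Cy3, and its sign-changing part was just outside the threshold at 0.36 ± 0.086 (limma adjusted p = 0.054). Like Rpl23, the genes Rpl13, Rpl22, Rps13 and Rps28 were below 0 on all 4 arrays, which makes 5 of 72 members (6.94%), against 4.92% of all genes. The number above 0 on all 4 arrays was 0 of 72, against 4.72% of all genes.

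Arrays 1 and 2 were both below arrays 3 and 4 in 31 members (43.1%), against 32.2% of all genes. They were both above in 19 members (26.4%), against 35.0% of all genes. Across the 72 members Pearson's r was 0.59 between arrays 1 and 2 and 0.88 between arrays 3 and 4, against 0.37 and 0.73 across all genes. Between orientations r was -0.75 for arrays 1 and 3, -0.82 for arrays 1 and 4, -0.41 for arrays 2 and 3 and -0.52 for arrays 2 and 4. The same 4 values across all genes were -0.62, -0.63, -0.20 and -0.30. Without Rpl28 the r of arrays 1 and 2 was 0.74 across the members. Spearman's rho between the sign-changing and the sign-keeping part was -0.55 across the members and -0.43 across all genes. These values describe genes that share the same arrays and labelled RNA and are not independent.

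**Figure D3:**
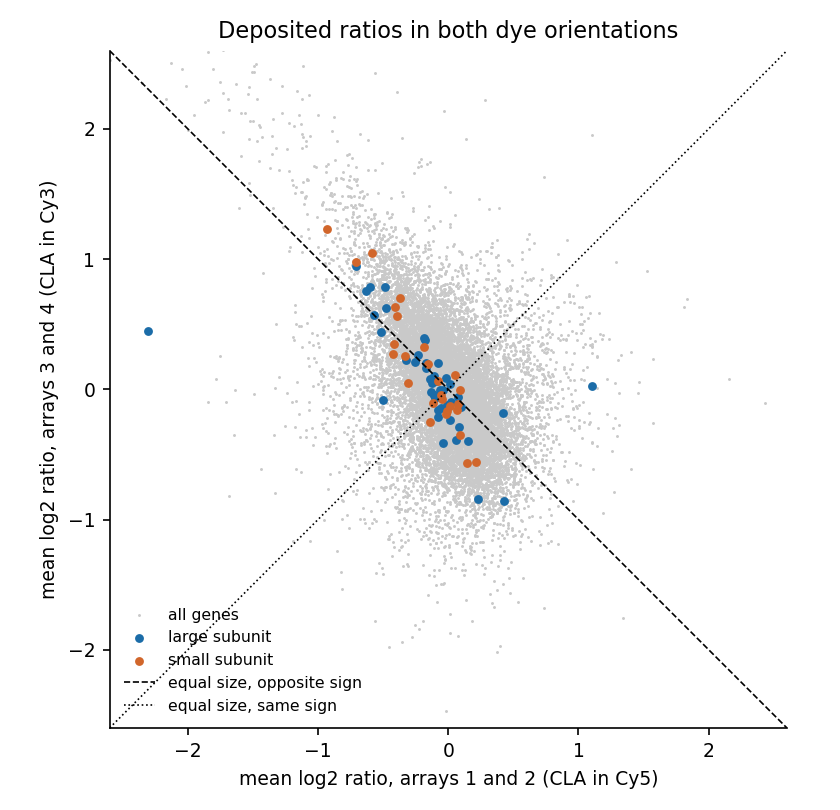
Mean deposited log2 ratio on arrays 3 and 4 (vertical axis) against that on arrays 1 and 2 (horizontal axis) for large subunit genes in blue, small subunit genes in orange and all genes in grey. The members are spread more along the dashed line of equal size and opposite sign than across it, and so are all genes. The SD in the sign-changing and the sign-keeping part is 0.37 and 0.17 between members, and 0.40 and 0.23 between all genes. Rpl28 lies at the far left and Rpl37 at the far right. Some negative members lie above the line, with larger values on arrays 3 and 4, such as Rps19 (-0.58 against 1.04) and Rpsa (-0.37 against 0.70). Outside the axis limits of 2.6 lie 56 genes and 0 members.

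The subunits were compared on every array. The large subunit mean minus the small subunit mean was 0.096, -0.043, -0.11 and -0.056 on arrays 1 to 4. In the sign-changing part the difference was 0.054 ± 0.069 (SD, n = 4 arrays) and in the sign-keeping part -0.028 ± 0.088, each smaller than its spread over the arrays. Without Rpl28, an alternative chosen after seeing the data, it was 0.083 ± 0.034 and -0.0080 ± 0.10, and the first of these was larger than its spread. The difference of the subunit medians over all members had the other sign in the sign-changing part, -0.034 ± 0.030, and was also larger in size than its spread. On arrays 1 to 4 the medians were -0.11, -0.10, -0.014 and 0.090 for the large subunit and -0.11, -0.063, -0.038 and 0.018 for the small subunit. The shares past the threshold were 15.6% negative and 4.44% positive for the large subunit, and 25.9% negative and 3.70% positive for the small subunit. Whether these shares differ was not tested.

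**Figure D4:**
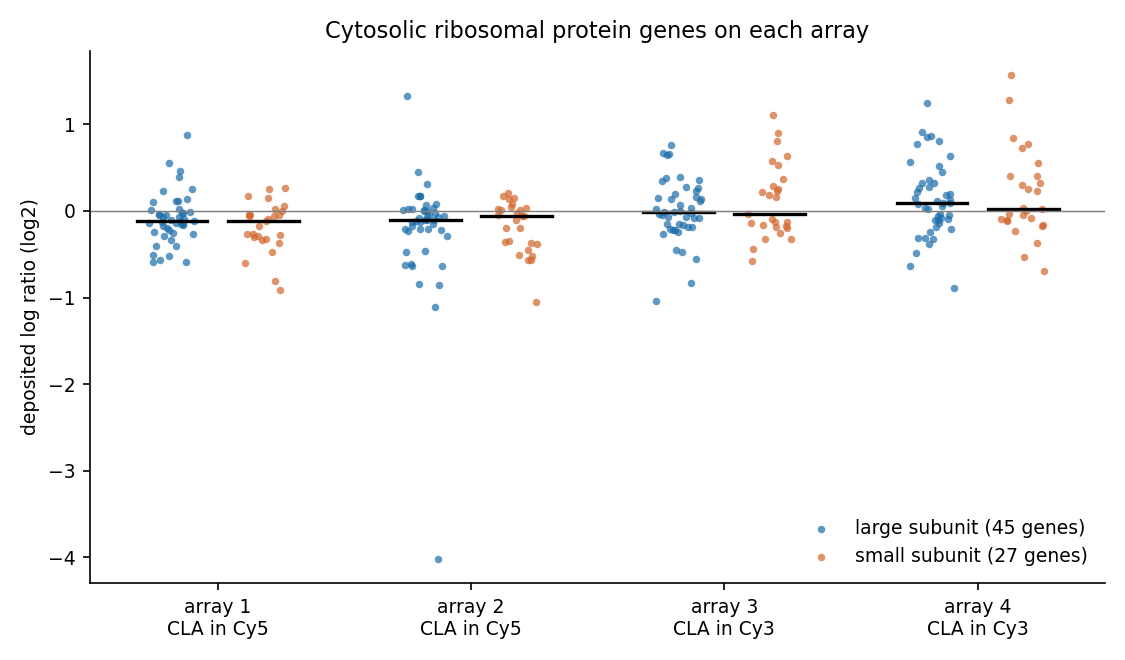
Deposited log ratios (log2, vertical axis) of the 45 large and 27 small subunit genes on each array, 1 point per gene, with black lines for the medians. The medians lie between -0.11 and 0.090, and Rpl28 lies alone at -4.02 on array 2.

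The spread between genes was read on every array. The SD between the 72 members was 0.29, 0.58, 0.39 and 0.46 on arrays 1 to 4, against 0.40, 0.50, 0.55 and 0.59 between all genes. The interquartile range was 0.28, 0.38, 0.44 and 0.48, against 0.42, 0.49, 0.61 and 0.69. The members were thus closer together than all genes in each of these except the SD on array 2, which was 0.36 without Rpl28. This was not particular to the members. Among translation lists described below, the SD was 0.29, 0.37, 0.38 and 0.49 for initiation factors and poly(A) binding. It was 0.32, 0.27, 0.37 and 0.41 for elongation factors and associated genes. The signalling genes were wider than all genes, with 0.62, 0.92, 0.87 and 0.92. Rpl28, of the large subunit, was at -0.59 and -4.02 with CLA in Cy5 and 0.27 and 0.63 with CLA in Cy3. Array 2 stood far below the others. Its sign-changing part of -1.38 ± 0.57 was the most negative of the members and did not pass (limma adjusted p = 0.15). That place rests on array 2: without it the value was -0.52, the 10th most negative, and without array 1 it was -2.23. The members with the widest range over the 4 arrays were Rpl28 (4.65), Rps9 (2.62) and Rpl3 (2.09). The narrowest ranges were those of Rps13 (0.091), Rpl24 (0.10) and Rpl22 (0.13).

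The stalk of the large subunit, which recruits elongation factors, is built from Rplp0, Rplp1 and Rplp2. Rplp0, its base, was at -0.59 and -0.62 with CLA in Cy5 and 0.67 and 0.91 with CLA in Cy3 as the mean of 2 probes. The orientations did not overlap, and the sign-changing part was -0.70 ± 0.085 (limma adjusted p = 0.024). One probe gave -0.31 and the other -1.08. Rplp1 was at -0.16 and -0.18 with CLA in Cy5 and 0.071 and 0.33 with CLA in Cy3, in the same order, and its sign-changing part of -0.18 ± 0.086 did not pass (limma adjusted p = 0.19). Rplp2 was not analysed here.

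Among 5 members with 2 probes, the probes of Rplp0, Rps18 and Rpl27a had the same sign in the sign-changing part. Those of Rps18 gave -0.42 and -0.53 and those of Rpl27a -0.33 and -0.22. The probes of Rps12 gave 0.31 and -0.36 and those of Rpl30 0.21 and -0.12, so the means of -0.027 for Rps12 and 0.042 for Rpl30 stand for neither probe. Ribosomal protein genes have many processed pseudogenes and some near-identical paralogs, so a probe can detect more than its own gene. Cross-hybridisation was not tested.

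The name rule also took 5 paralogs and Rps19bp1, a binding partner of Rps19, and 0 of these 6 passed in either part (limma). Rpl22l1, the paralog of Rpl22, was at 0.46 and 0.0015 with CLA in Cy5 and -1.04 and -0.64 with CLA in Cy3. Arrays 1 and 2 were above arrays 3 and 4, and the sign-changing part was 0.53 ± 0.13 (limma adjusted p = 0.052), against 0.043 ± 0.076 for Rpl22. Rpl39l, a paralog of Rpl39 known mainly from testis, had 0.30 ± 0.12 and did not pass (limma adjusted p = 0.15). Rpl7l1 had 0.18 ± 0.082, against -0.11 ± 0.085 for Rpl7. Rpl36al had -0.14 ± 0.080, against 0.056 ± 0.089 for Rpl36a. Rps27l, a p53 target in human cells, and Rps27 were both near 0, with 0.045 ± 0.094 and 0.057 ± 0.10. Rps19bp1 had -0.17 ± 0.096 (limma adjusted p = 0.25). Whether a paralog differed from its partner was not tested. Without these 6 genes the member median was -0.054 in the sign-changing part.

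Other genes of translation were read from the same fit, against the 9.72% negative and 7.37% positive of all genes. Of 76 mitochondrial ribosomal protein genes 14 were negative and 4 positive past the threshold in the sign-changing part, with a median of -0.095. Mrpl12, which also binds the mitochondrial RNA polymerase, had -0.73 ± 0.079 (limma adjusted p = 0.021), Mrpl46 had -0.64 ± 0.080 (limma adjusted p = 0.024) and Mrpl57 had 0.55 ± 0.076 (limma adjusted p = 0.026). Fau, a small subunit protein made as a fusion with a ubiquitin relative, had -0.13 ± 0.091 and did not pass (limma adjusted p = 0.36).

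Of 11 elongation factors and associated genes 2 were negative and 1 positive. Eef2, which moves the ribosome along the messenger, was at -0.62 and -0.47 with CLA in Cy5 and 0.54 and 0.93 with CLA in Cy3, with -0.64 ± 0.10 (limma adjusted p = 0.031). Eef1b2, an exchange factor for elongation factor 1, had -0.56 ± 0.096 (limma adjusted p = 0.033). Both had the order of Rps9. Eef1g, of the same exchange complex, and Eef2k, the kinase that inhibits Eef2, did not pass, with -0.16 ± 0.086 and -0.25 ± 0.14.

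Of 50 initiation factor and poly(A) binding protein genes 9 were negative and 3 positive, with a median of -0.031. The subunits of initiation factor 3 Eif3f and Eif3h had -0.91 ± 0.10 (limma adjusted p = 0.022) and -0.72 ± 0.10 (limma adjusted p = 0.027), and Eif3a had -0.32 ± 0.11 and did not pass (limma adjusted p = 0.1). Eif2b5, the catalytic subunit of the exchange factor of initiation factor 2, had -0.59 ± 0.083 (limma adjusted p = 0.027). Of 41 ribosome biogenesis genes 7 were negative and 2 positive. Among them Rrp1, a nucleolar processing factor, had -0.93 ± 0.11 (limma adjusted p = 0.023), Riok3, an atypical kinase, had -0.67 ± 0.10 (limma adjusted p = 0.03), and Nop10, of the particles that form pseudouridine, had 0.61 ± 0.077 (limma adjusted p = 0.025).

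Of 17 genes of the signal recognition particle and translocon, which bring ribosomes to the endoplasmic reticulum, 4 were negative and 2 positive. The receptor subunits Srprb and Srpr had -1.05 ± 0.076 (limma adjusted p = 0.0091) and -0.43 ± 0.080 (limma adjusted p = 0.037), and Ssr2, beside the translocon, had -1.01 ± 0.11 (limma adjusted p = 0.022). Of 11 signalling genes 2 were negative and 0 positive. Larp1, which binds the pyrimidine-rich starts of ribosomal protein messages, was at -2.16 and -2.22 with CLA in Cy5 and 2.68 and 3.11 with CLA in Cy3. Its sign-changing part of -2.54 ± 0.10 (limma adjusted p = 0.0026) was larger in size than that of any member. Over all genes the sign-changing part ran from -5.78 to 1.55, so the negative side reached farther in the whole table. The S6 kinase Rps6kb2 had -0.46 ± 0.086 (limma adjusted p = 0.037), and Mtor had -0.24 ± 0.081 and did not pass (limma adjusted p = 0.1). In the sign-keeping part 0 genes of these lists passed, as in the whole table.

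**Figure D5:**
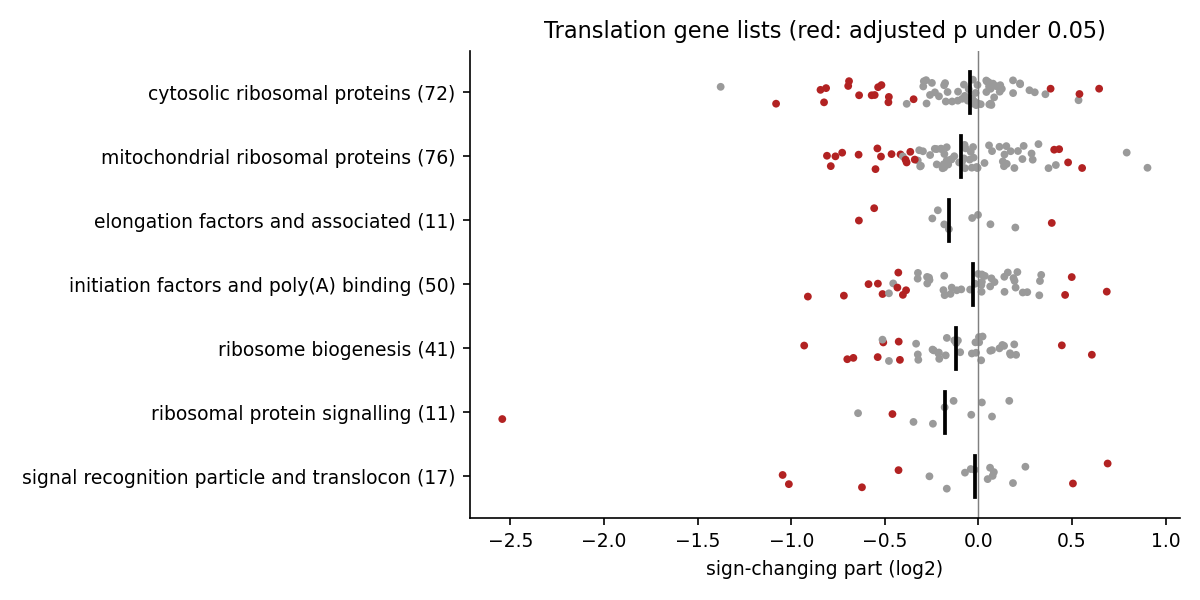
Sign-changing part (log2, horizontal axis) of the cytosolic ribosomal protein genes and of 6 other translation lists, with the number of genes in brackets, black lines for the medians and red points for an adjusted p under 0.05. The medians of the 7 rows lie between -0.18 and -0.020, and each row holds genes on both sides of 0.

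Outside the set, the genes whose 4 values were nearest to the member medians of -0.11, -0.10, -0.017 and 0.067 were Thap7, Tardbp, Rpf1, Rab14 and Rnpepl1. Their Euclidean distances to these medians over the 4 arrays were 0.053 to 0.061.

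Ratios give no level of a gene, so the liver label could not be checked by marker abundance, and fewer cells of a type cannot be told apart from less RNA per cell. In the sign-changing part 9.72% of all genes were negative and 7.37% positive past the threshold. Whether any of these short marker lists differed from those shares was not tested. Of 8 hepatocyte markers 2 were negative and 1 positive. The negative count was 1 of 6 for Kupffer cell and macrophage markers, 1 of 8 for stellate, 1 of 4 for adipocyte, and 0 of 9 for lymphocyte, 0 of 8 for endothelial, 0 of 5 for cholangiocyte, 0 of 4 for erythroid and 0 of 7 for pancreas acinar markers, with 0 positive in each (limma). Of 8 proliferation genes 1 was negative and 2 were positive. The pancreas acinar list averaged 0.020, 0.12, -0.18 and 1.94 on arrays 1 to 4 and the erythroid list -0.65, 0.76, 0.055 and -0.46. Their part in the results on ribosomal proteins was not tested.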

How the data were processed

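RNA of pooled mouse liver was measured on 4 arrays with 2 channels. The authors deposited 1 value per feature and array, read here as a log10 ratio, while the sources used here state neither its base nor its direction nor its normalization. The deposited log10 values ran from -3.17 to 3.28, with array medians of 0.0010, -0.0023, -0.0020 and -0.0011. They were multiplied by 3.32 to give log2 values. If the base were 2, every log2 value would be smaller by that factor and p-values would not change. Spot intensities were not used, so dim and saturated spots could not be left out, and the number of arrays limits the precision.

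Of 22393 features 18218 had 1 symbol in the platform annotation, 16 had several and 4159 had none. Gene numbers of 18175 matched RefSeq, which changed 0 symbols. Accessions with at least 8 features were taken as replicate spots and averaged, and 17782 probes were averaged to 16504 genes. The lmFit and eBayes functions of limma 3.58.1 (R 4.3.3) were run per gene with a sign-changing and a sign-keeping coefficient, on 2 residual and 2.66 prior degrees of freedom, with the Benjamini-Hochberg adjustment taken over all genes. The fit was tested on simulated independent noise with added changes. These were larger than the sign-changing parts of most members past the threshold, so smaller changes were not covered. Subunits, spreads and lists are described without a test.

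The members and lists were chosen with earlier results of these data known. Members named are those past the threshold (or the 5 with the smallest p), the stalk genes, Rpsa, paralogs, extremes of range and genes whose probes disagree; in other lists, the 2 genes with the smallest p in each part. Rps3, Rps6, Rpl5, Rps28, Rpl13 and the partners of paralogs in the sign-changing part were named after their values were seen. Alternatives were centring, scaling, removal of a trend over the feature number (span 0.3), 1 coefficient, averaging arrays in pairs, robust moderation, thresholds of 0.01 and 0.1, probes one by one, equal weight of features, a log base of 2, leaving out paralogs, each array in turn, and, chosen after seeing the data, Rpl28. Tables and figures were made with Python 3.11.15 and matplotlib 3.10.9.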

Additional observations from a re-analysis of the deposited data

Results flagged for a closer look

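One array lay far from the other 3, by Dixon's ratio of the gap to the range, in 7 of 144 sets of 4 values, from 72 members read with arrays 3 and 4 turned and as deposited. Chance flags about 5 in 100 such sets. With arrays 3 and 4 turned, Rpl28 was at -4.02 on array 2 and Rpl14 at -1.11 on array 2. Also after turning, Rpl32 was at -0.29 on array 1, Rps6 at 0.18 and Rpl39l at -0.11 on array 3, and Rpl24 at -0.090 on array 4. As deposited, Rpl26 was at -0.23 on array 3.

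Of 4159 features without a gene name, which enter no comparison of the ribosomal protein genes, 473 lay over 10-fold from 0 in the sign-changing part, and all 473 were negative. Their median log2 values were -8.67 and -7.66 with CLA in Cy5 and 8.75 and 8.54 with CLA in Cy3. What these features are, and whether they bear on the direction of the deposited ratio, was not tested.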

How the results depend on the processing

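The count of 17 members past the threshold in the sign-changing part ranged between 0 and 3 when 1 array was left out, which leaves fewer samples. Over all genes the count of 2820 came to 544 and 735 without array 1 or 2 and to 0 without array 3 or 4. The member count was 0 with arrays 1 and 3 and arrays 2 and 4 averaged, and 0 at an adjusted p under 0.01. It was 26 at an adjusted p under 0.1, and within 1.5 times 17 in the other settings run. In the sign-keeping part the count was 0 in every setting run (limma), with 0 to 7 members at an unadjusted p under 0.05. Medians of the members and differences between subunits moved by less than their SD over arrays, but the subunit difference in the sign-keeping part, -0.028, was 0.012 with the trend over the feature number removed and 0.0067 without array 2. The SD between members, 0.43 as the mean of the 4 arrays, would be 0.13 with a log base of 2. The sign-changing part turned its sign without at least 1 array in 18 of 72 members, in 6 without array 1, 4 without array 2, 2 without array 3 and 11 without array 4. Rpl14, at -0.21, was the farthest from 0 of these, and 0 of the 17 members past the threshold were among them. Those 17 were picked on the same arrays for values large against their spread, so their kept signs are no separate support. Rpl5 was at 0.054 without array 4 and 0.017 without array 2, Rps6 at -0.041 without array 3 and Rpl14 at 0.094 without array 2. Without 1 array, Rps27l lay between -0.034 and 0.12, Rpl30 between -0.00084 and 0.085, Rps12 between -0.10 and 0.048, Rps13 between -0.028 and 0.018 and Rpl24 between -0.037 and 0.013. Rps12 was at 0.046 without array 4. Rpl30 was at -0.0068 with the trend removed. The cause was not tested. Each value is a ratio of a CLA and an LA pool on 1 array, so the pools were compared within arrays. The labels do not pair arrays with each other. Signal over background is not known, so weak probes could not be set apart.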
